A study of Homo sapiens with 3 samples.

Results

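The ribosome peaks of HEK293T cells that carried no added DDX3X were described from 1 list, that of the cells transfected with empty pCDNA3.1 vector. All 11219 peaks of this list were taken, out of 46819 peaks in the 3 lists of the series. HEK293T is a human embryonic kidney cell line. The cells were transfected for 24 h, and the labels name no over-expressed product. According to the labels, 2 µg/ml harringtonine, which holds newly started ribosomes at the start codon, was given for 90 s, and 100 µg/ml cycloheximide, which stops ribosomes that are moving, was then added. Only cycloheximide is named in the methods of the paper, so it is uncertain whether harringtonine was used. There was 1 library and no replicate culture, so no test was possible. Shares are given with 95% Wilson intervals, which cover counting error only. For shares of peaks they take peaks as independent, although many lie close together in the same gene, so they could be too narrow.

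During translation the ribosome protects a short stretch of mRNA from nuclease, and sequencing of these fragments shows where ribosomes stood. The protected fragment reaches from about the exit side of the ribosome to its entry side, and the codon being decoded lies at a nearly fixed distance from its 5′ end. The ribosome holds tRNAs in the A site, where a new amino acid arrives, the P site, which carries the growing chain and which is filled first by the start codon, and the E site, from which the used tRNA leaves. A peak here is a stretch of the genome where read coverage reached the authors' cut-off. The list gives no height or read number for a peak. A gene with many peaks is therefore a gene with many separate covered stretches, which is not the same as many ribosomes, and the read depth behind each peak is unknown.

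Some peaks at start codons are shown here base by base. The following peaks of 28 to 30 bases were picked because each is about as long as 1 footprint. They were also picked to begin 12 or 13 bases before the start codon, which stands in capitals. The distance was thus part of the choice and is not a result of these sequences. All coordinates are those of hg19, and the letters are those of the GRCh37 reference, read 5′ to 3′ along the gene.
SIRT1, a protein deacetylase (chr10:69644468-69644497, plus strand): ggcagttggaagATGgcggacgaggcggcc
RAB26, a small GTPase (chr16:2198772-2198801, plus strand): gcgcccgcccgccATGtccaggaagaagac
MTHFD1L, a mitochondrial enzyme of one-carbon metabolism (chr6:151186947-151186975, plus strand): ccgtcccgcgccATGggcacgcgtctgcc
SUDS3, a subunit of a histone deacetylase complex (chr12:118814485-118814514, plus strand): gtcagaggcgacATGagtgccgcggggctg
MTLN, a mitochondrial micropeptide (chr2:110970085-110970114, minus strand): ccggcggcagccATGgcggatgtgtcagag

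Peaks in 5′ leaders can be shown in the same way. Those below had the triplet CUG, written CTG in capitals, 12 bases from the 5′ end, and they are shown because this triplet stood out among the 5′-UTR peaks described further on. The choice was made after the values were seen.
CCDC6, a coiled-coil protein (chr10:61666258-61666287, minus strand): ctcggcgctcccCTGtgctcgcccggcgcc
TMEM165, a Golgi membrane protein (chr4:56262270-56262298, plus strand): gcgccgcggaggCTGttcggggtcgaggc
WEE1, a kinase that restrains entry into mitosis (chr11:9595222-9595250, plus strand): ccgaacctgagaCTGgacctgaggagacc
STRAP, a WD-repeat protein (chr12:16035448-16035476, plus strand): gtcgcagactccCTGacccctccctcacc
NAA50, an N-terminal acetyltransferase (chr3:113464904-113464932, minus strand): tcgcacagctccCTGcccaggctaggagg

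The list spanned chromosomes 1 to 22, X and the mitochondrial genome. Of its peaks, 5794 lay on the plus and 5425 on the minus strand. The authors' numbering reached 13171, so 1952 numbers (14.8%) were missing from the rows analysed here. A gene described below as having 0 peaks has none among these rows, and it could have had peaks among the missing numbers. With 11219 peaks, a class of which none was seen could still make up 0.0267% of the peaks.

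Coding exons held the largest class of peaks, 5550 of 11219 (49.5%, interval 48.5 to 50.4). The class that surrounds transcription start sites, promoter-TSS, followed with 2580 peaks (23.0%), introns with 1110 (9.89%) and the class at transcript ends, TTS, with 637 (5.68%). The 5′-UTR class held 567 peaks (5.05%, interval 4.66 to 5.47) and the 3′-UTR class 137 (1.22%, interval 1.03 to 1.44). Non-coding RNA genes held 349 peaks (3.11%), stretches between genes 193 (1.72%) and the mitochondrial genome 96 (0.856%). Thus peaks of the 5′-UTR class outnumbered those of the 3′-UTR class in this list.

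These classes come from the authors' annotation, which gives a peak near a start or end site to that site even where the gene runs on the opposite strand. In the promoter-TSS class, 40.3% of the 2492 peaks with a known gene strand lay opposite to the named gene, and in the TTS class 52.8% of 597 did. In the exon class the share was 3.40% of 5506. When each peak was instead placed by its midpoint on the canonical transcript of its own strand (GENCODE release 44), 6747 peaks (60.1%, interval 59.2 to 61) lay in coding sequence, 947 (8.44%, interval 7.94 to 8.97) in a 5′-UTR and 174 (1.55%, interval 1.34 to 1.80) in a 3′-UTR. A further 430 lay opposite to an exon and 2921 (26%) on no canonical exon. Of the TTS class, 70.2% lay in coding sequence and 7.22% in a 3′-UTR. Of the promoter-TSS class, 29% lay in coding sequence and 18.3% in a 5′-UTR, while 47.6% lay on no canonical exon.

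Internal exons of the genes held most exon peaks. They had 3582 of the 5550 exon peaks (64.5%), last exons 974 (17.6%), first exons 663 (11.9%) and genes of 1 exon 331 (5.96%). Of the intron peaks, 623 of 1110 (56.1%) lay in the first intron. Intron peaks were short, with a median of 22 bases against 37 in exons, and 26.7% of them were on the strand opposite to the gene. Their mean GC content was 70.1% (SD 12.6 across 1110 peaks) against 58.7% (SD 12.2 across 5550 peaks) in exons, 70.1% in the 5′-UTR class and 68.8% in the promoter-TSS class. What part GC content, strand or read mapping had in the intron peaks was not tested.

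Peak lengths had a median of 30 bases, with quartiles of 22 and 53, and reached 498 bases. Lengths fell around 2 high points, with 417 peaks of 23 bases and 417 of 29 bases. Footprints of elongating ribosomes are known to be near the latter length, but a peak is a covered stretch and not a single read. The authors had dropped reads under 21 bases, and lengths include the 1 base by which starts were moved here. Of all peaks, 1798 (16.0%) were 21 to 25 bases long and 1983 (17.7%) were 26 to 32. Longer stretches were common, with 717 peaks (6.39%) over 100 bases. A total of 1202 peaks (10.7%) were shorter than 10 bases, although the study's methods state a minimum of 10, and 163 of these were 1 base long. Neighbouring peaks were close: among 11172 gaps between peaks of 1 strand, 2073 (18.6%) were under 10 bases and 5726 (51.3%) under 100.

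**Figure D1:**
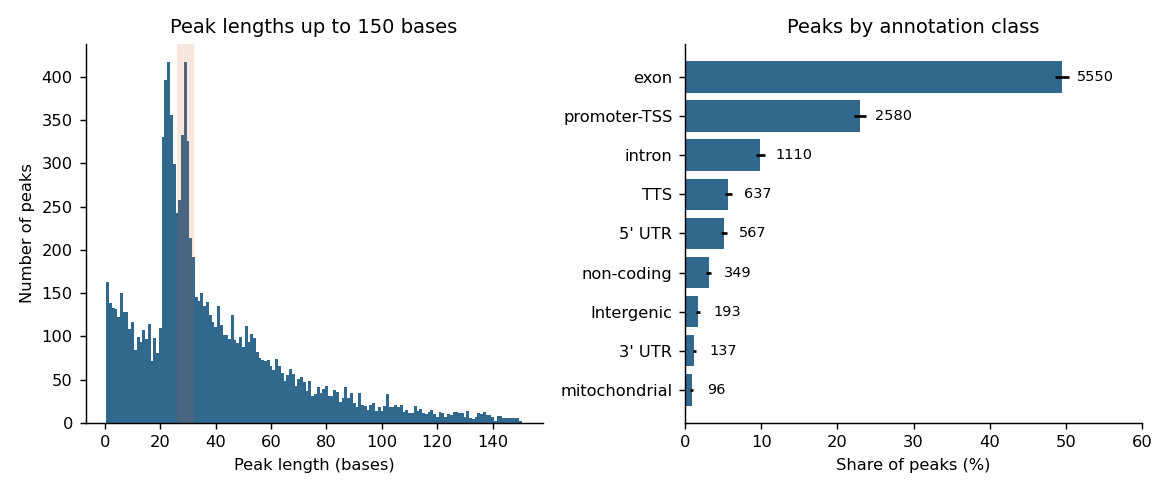
Left, number of peaks at each length from 1 to 150 bases, with 26 to 32 bases shaded; right, share of the 11219 peaks in each annotation class in percent, with 95% Wilson intervals as bars and the number of peaks beside each. The lengths rose at 21 bases and had high points at 23 and 29 bases, and coding exons held 49.5% of the peaks.

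The longest peak covered 498 bases of H1-4, a linker histone, and the next 492 bases of HSPA1A, an inducible heat shock protein. Linker histones H1-2 (410 bases) and H1-3 (372) were also among the 10 longest, as were MYBBP1A (410) and SURF6 (384), both nucleolar proteins, NEFM (345), a neurofilament subunit, SFPQ (318), a splicing factor, and H3C13 (315), a core histone. HSPA1A has a near-identical copy, HSPA1B, and core histone genes resemble each other, so reads of such genes could have been split between copies.

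Around start codons, 5′ ends of peaks gathered 12 to 14 bases upstream of the AUG. Among 6244 peaks of at least 21 bases on canonical transcripts, 64 began 13 bases, 49 began 12 bases, 29 began 14 bases and 14 began 11 bases before it. Other positions within 60 bases had a median of 6 peaks, but some had more than the 14 at 11 bases. The first base after the AUG had 22, and the positions 15 and 9 bases before the AUG had 20 each. Together the 4 positions 11 to 14 bases before the AUG held 156 peaks (2.50%) in 156 genes. Only 33 of them were 26 to 34 bases long, and their median length was 60 bases, so most ran on into the coding sequence. A peak covered the whole start codon in 546 of the 1668 genes with such peaks. No rise was seen before the stop codon. The 10 positions 12 to 21 bases before it had 19 peak 5′ ends, the 10 positions upstream of them 30 and the 10 downstream 17. In the first 30 bases after the stop codon 24 peaks began, compared with 181 in the 30 bases from 60 to 31 before it.

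The reading frame was visible within coding sequences. Of 1120 nuclear coding peaks of 26 to 34 bases, 571 (51%, interval 48.1 to 53.9) began at the first base of a codon, 290 (25.9%) at the second and 259 (23.1%) at the third. An even spread would give 33.3% each. The share in this main frame was 72.6% at 29 bases (130 of 179 peaks) and 56.2% at 28 bases (95 of 169). It was 39.5% (interval 35.5 to 43.8) in the 531 peaks of 21 to 25 bases and 64.7% (interval 59.5 to 69.5) in the 348 peaks of 28 or 29 bases. Peaks under 10 bases showed 50.5% in the main frame (295 of 584), close to the share of the footprint-sized peaks. The 3′ end was less regular, with 41.6% of 1121 peaks in its most frequent frame.

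**Figure D2:**
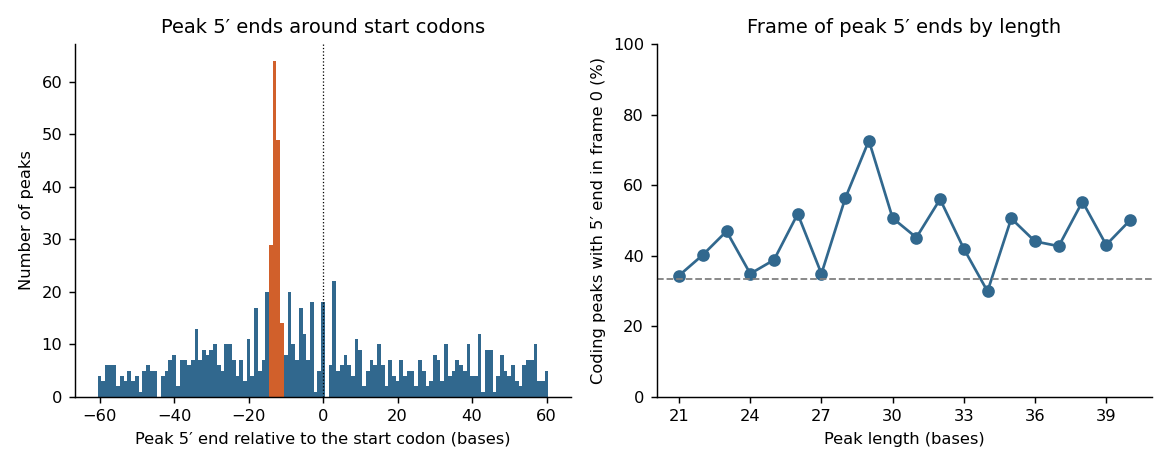
Left, number of peaks of at least 21 bases by the position of their 5′ end relative to the start codon (0 is its first base, dotted line), with positions 14 to 11 bases upstream in orange; right, percent of nuclear coding peaks of each length from 21 to 40 bases whose 5′ end is at the first base of a codon, with 33.3% dashed. The tallest column is 64 peaks at 13 bases upstream, and the share was highest at 29 bases (72.6%).

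Along the coding sequence, peaks were most frequent at the beginning. The first 10% of the coding length held 913 of 6680 nuclear coding peaks (13.7%, interval 12.9 to 14.5), and each of the 10% steps between 10% and 80% held 8.20% to 9.84%. The 2 steps after 80% were higher again, with 11.3% and 10.9%. Counted per kb of coding sequence of the genes with a coding peak, codons 1 to 50 had 6.44 peaks per kb, codons 51 to 100 had 4.51, codons 101 to 200 had 3.78, codons 201 to 400 had 3.20, codons 401 to 800 had 2.41 and later codons 0.739. Only genes with long coding sequences enter the later ranges, so this order combines position with gene length.

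The codons under the peaks differed in composition from those of their genes. In 561 main-frame peaks of 420 genes, with the P site set 12 bases from the 5′ end, the codon in the A site encoded glutamate in 83 (14.8%, interval 12.1 to 18.0), where the same coding sequences have 7.83%. Valine was rarer there than in the genes (2.32%, interval 1.36 to 3.92, against 5.91%), as were phenylalanine (0.535% against 3.13%) and leucine (5.70%, interval 4.07 to 7.94, against 8.69%). In the P site, proline made up 10.3% (interval 8.08 to 13.1) against 6.72%, and cysteine 0.178% (interval 0.0315 to 1.00) against 1.52%. Lysine was more frequent there as well (9.09%, interval 6.98 to 11.8, against 6.85%). In the E site, threonine made up 8.02% (interval 6.05 to 10.6) against 4.72% and lysine 9.98% (interval 7.77 to 12.7) against 6.85%. Alanine was also more frequent there (10.9%, interval 8.56 to 13.7, against 8.26%), while leucine (5.17%, interval 3.62 to 7.33, against 8.69%) and phenylalanine (0.891%, interval 0.381 to 2.07, against 3.13%) were rarer. These were the amino acids, among 20 at 3 sites, whose interval left out the share in the genes. They were named after their values were seen, with no adjustment for the number of values compared. Base composition moved with them. In the 1238 coding peaks of 26 to 34 bases, U made up 12.1% of all bases, compared with 18.9% in the coding sequence of the same genes, and 5.57% of the last bases of the peaks. The last base was G in 39.9% of peaks and the second base C in 36.4%. Whether the composition of the ends set the amino acid shares was not tested.

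The 947 peaks in canonical 5′-UTRs came from 555 genes. Their midpoints lay at a median of 85 bases before the start codon (quartiles 34 and 197), and 336 (35.5%) were within 50 bases of it. In the annotation's own 5′-UTR class, U2AF2, a subunit of the factor that recognises the 3′ splice site, had 9 peaks and SESN2, a stress-induced regulator of growth signalling, had 8. On the canonical transcripts, however, only 1 peak lay in the 5′-UTR of U2AF2, compared with 8 in that of SESN2. SLC1A5, FZD1, POU3F3, SLIT2 and FBXL19 also had 8 each by this placement. MTRNR2L2 also had 9 in this class, and it is described with the mitochondrial sequences below.

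Near-cognate start codons differ from AUG by a single base, and CUG is the one best known to start translation in human leaders. Among 182 5′-UTR peaks of 26 to 34 bases in 156 genes, 20 had CUG 12 bases from the 5′ end (11%, interval 7.23 to 16.4). Annotated start codons stood at this distance in 49 peaks of at least 21 bases, and at 13 bases in 64. CUG made up 2.35% of all triplets of the same leaders. At the 23 other distances from 0 to 23 bases, 0 to 9 peaks had CUG, with a median of 3, and the 9 were at 13 bases. AUG stood at 12 bases in 4 peaks (2.20% against 0.304% of triplets) and ACG in 6 (3.30% against 0.924%), and both counts are small. The 20 CUG peaks came from 20 genes and lay 38 to 715 bases before the AUG, with a median of 140.5. In 8 of them the CUG was in frame with the annotated start codon, and in 3 of these no stop codon came between, as in CCDC6, TMEM165 and SNAP29, a vesicle fusion protein. In the other 12 it was out of frame. WEE1, STRAP and NAA50, whose sequences are printed above, were among these. The 4 AUG peaks included MGAT2, an enzyme that builds N-linked glycans, where a stop codon came after 2 codons including the upstream AUG, and TMEM205, where it came after 4.

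Peaks were spread over many genes. The annotation assigned 11025 peaks to 2084 genes, with a median of 4 peaks per gene and a mean of 5.29. A total of 258 genes (12.4%) had 1 peak, 991 had at least 5, 251 had at least 10 and 30 had at least 20. The most peak-rich 10% of genes, 209 genes, held 3123 peaks (28.3%, interval 27.5 to 29.2), and 494 genes held 50% of all. Protein-coding genes took 92.1% of the assigned peaks, small nucleolar RNA genes 266 peaks (2.41%), long non-coding RNA genes 162 (1.47%) and miRNA genes 151 (1.37%).

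EEF2, the elongation factor that moves the ribosome along the mRNA, had most peaks with 41. It lies on chromosome 19 (3976054 to 3985461, minus strand). Of these peaks 32 were in coding exons, 6 in introns and 3 in the 3′-UTR by the annotation. Placed on the canonical transcript, 35 peaks lay in its coding sequence and covered 61.6% of it. TACC3, a protein of the mitotic spindle, had 31, but 3 of them lay opposite to the gene. The first of its 27 coding peaks began at codon 102, and the last ended at base 2481 of the 2514 coding bases. MAZ, a zinc finger transcription factor, and GNAS, the alpha subunit of the stimulatory G protein, had 28 each, and TCOF1, a nucleolar factor for ribosomal RNA synthesis, had 26. The peaks of MAZ included 8 in introns and 6 in the 3′-UTR, the highest number in the 3′-UTR class.

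Further genes of the 25 with most peaks had 20 to 25 each. They included the cytoplasmic actins ACTB (25) and ACTG1 (20), the actin binder DBN1 (24), the corepressor TRIM28 (25), the endoplasmic reticulum chaperone HSPA5 (23) and enzymes of energy metabolism, namely MDH2 of the citric acid cycle (23), CKB, a creatine kinase (22), and ALDOA of glycolysis (20). RNA-related members were SF3B2, a splicing factor (22), HNRNPU (20), RPL8 of the large ribosomal subunit (22) and GTF2F1, a general transcription factor (22). ZNF703, a transcriptional repressor, had 22, and ARHGDIA, NASP, a histone chaperone, SLC25A1, the mitochondrial citrate carrier, and MTRNR2L2 had 21 each. In ACTG1 15 of the 20 peaks carried the non-coding class, although 13 of its peaks lay in the canonical coding sequence and covered 89.7% of it. Together the 25 genes held 608 peaks, 5.51% of those assigned. IRS4, an adaptor of insulin signalling, also had 20 peaks but fewer bases covered, and was not among the 25.

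**Figure D3:**
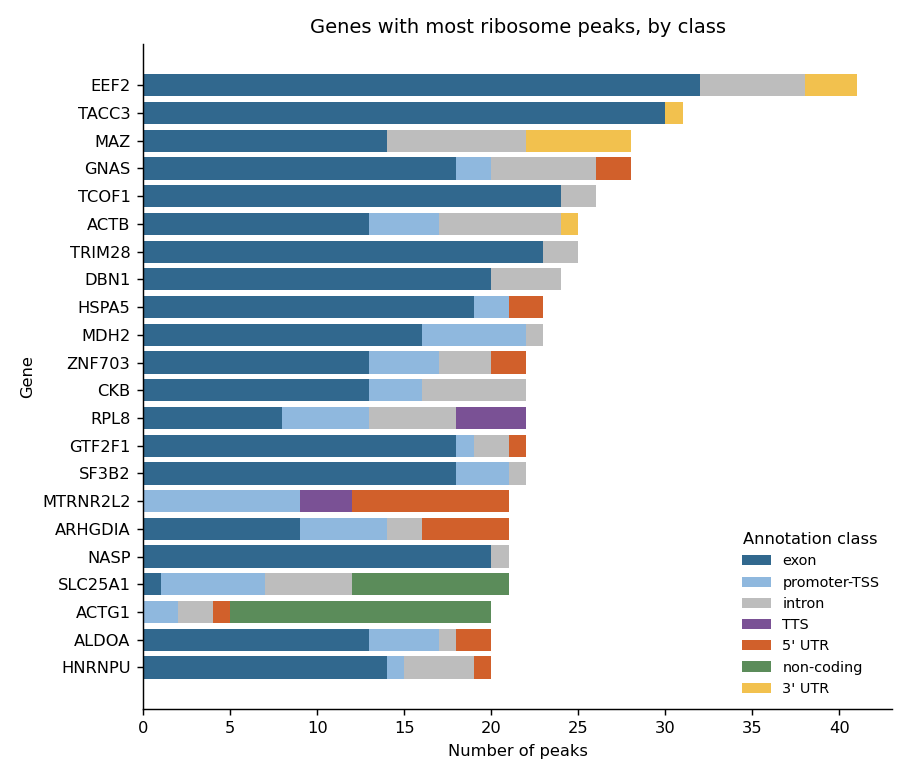
Number of peaks in the genes named above from the 25 with most peaks, with the annotation class of the peaks in colour. EEF2 leads with 41 peaks, and in most genes the coding exon class makes up the longest stretch, except in MTRNR2L2, SLC25A1 and ACTG1.

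DDX3X itself, the RNA helicase that the study over-expressed in its other libraries, had 0 peaks. Its absence could not be checked against the missing numbers.

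The position of a peak on an exon gave a partly different order of genes. Of 7848 assigned peaks on a canonical exon of their own strand, 6564 (83.6%) lay on an exon of the gene named in the annotation. The other 1284 lay on an exon of another gene, and 716 of them (55.8%) were in the promoter-TSS and 450 (35%) in the TTS class. KHSRP, a splicing and mRNA decay factor, had 9 annotated peaks but 25 on its exons, since 16 had been given to the miRNA gene MIR3940. RPL3 had 3 annotated peaks and 23 on its exons, 9 of them under SNORD83B. TUBB4B, a beta tubulin, had 6 and 20, and all 14 peaks of CIMIP2A, the top gene of the TTS class, lay in the coding sequence of TUBB4B. In the same way, 9 of the 10 peaks named RAD9A were coding peaks of PPP1CA, a phosphatase subunit, and 8 of the 12 named RPAIN lay on exons of C1QBP. Of the 18 peaks named YRDC, 13 lay on exons of C1orf122, and 15 of the 16 in the promoter-TSS class were opposite to YRDC. Of 417 peaks named after 87 small nucleolar and micro RNA genes, 303 (72.7%) lay in the coding sequence of a protein-coding gene. By exons, EEF2 (38) again had most peaks and TACC3 had 28, and 12 genes were among the first 25 in both orders.

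Relative to length, 5 of the 10 genes with the densest peaks were ribosomal protein genes. Among 528 genes with at least 5 canonical coding peaks, the median density was 7.48 peaks per kb of coding sequence, and the median share of the coding sequence covered was 32.1%. RPL36A had 25.2 peaks per kb, RPL37 24.1, RPL38 23.8, RPL12 22.2 and RPS6 21.4. The other 5 of the 10 densest genes were RNASEH2C, a subunit of an RNase H (22.4), HMGN2, a nucleosome binding protein (22.2), MYL6, a myosin light chain (22.1), UQCC3, an assembly factor of respiratory complex III (21.5), and PDCD5 (21.3). A gene with a short coding sequence that reaches the limit of 5 peaks must rank high in this order. RPL38 had 5 in 210 coding bases, while the median coding length of the 528 genes was 1069.5 bases. Among the genes with at least 5 coding peaks, coverage was widest in CCDC124, a ribosome-binding protein (97.9%), RPL13 (97.8%) and RPL29 (96.0%). Among genes with both an annotated and a coding peak, a long coding sequence did not go with many more coding peaks. Over these 1470 genes the Spearman correlation of coding length with coding peaks was 0.116, given as a description, since these genes share 1 library. Genes without a coding peak did not enter it.

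Across function lists, the share of genes with a coding peak and the density of peaks varied widely. For all 19869 protein-coding genes, 1552 (7.81%, interval 7.45 to 8.19) had a coding peak and the summed density was 0.199 peaks per kb. The lists below are given beside these values, by coding peaks on the canonical transcript.

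Ribosomal proteins stood highest. Of 54 large-subunit genes 48 had a coding peak (88.9%), with 11 peaks per kb, and of 35 small-subunit genes 30 had one (85.7%), with 9.47 per kb. Together the 89 genes held 477 coding peaks, 7.07% of all. By the annotation's gene names the share of peaks was 4.45% (interval 4.08 to 4.85). By annotated peaks RPL8 led the large subunit with 22, followed by RPL6 and RPL18 with 17 each. By coding peaks the order differed, with 22 in RPL3, 14 in RPL4 and 9 in RPL8. In the large subunit 6 members had 0 peaks, among them RPL10 and RPL9, and in the small subunit 5, among them RPS13 and RPSA. Mitochondrial ribosomal proteins were lower, with 31 of 78 (39.7%) and 2.17 per kb. MRPL28 had most of their peaks with 13.

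Among the factors that work with the ribosome, elongation factors had a coding peak in 7 of 14 genes at 4.59 per kb, namely EEF2, EEF1A1 (12 coding peaks), EEF1G (13), TUFM (13), EIF5A (8), EEF1B2 (6) and EEF1D (4). EEF1A2, the form of brain and muscle, had 0. Initiation factors had one in 21 of 43 genes at 1.80 per kb, with EIF3G, a subunit of the eIF3 complex, carrying 17 coding peaks and EIF4G1, the scaffold of the cap-binding complex, 11. Aminoacyl-tRNA synthetases had one in 9 of 22 genes at 1.05 per kb, and 11 peaks lay in FARSA. Release and recycling factors had one in 3 of 7.

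Chaperones were another group with many peaks. In the endoplasmic reticulum 11 of 14 had a coding peak (78.6%) at 4.16 per kb, with 19 coding peaks in HSPA5, 15 in HYOU1, 12 in PDIA4 and 11 in P4HB. In the cytosol 13 of 20 had one (65.0%) at 3.65 per kb. HSPA1A and HSPA1B had 16 coding peaks each, and CDC37, HSP90AA1 and HSP90AB1 had 15 each. HSPA8, the constitutive HSC70, had 0 in these rows. The TRiC chaperonin, which folds actin and tubulin, had a coding peak in 4 of 8 subunits at 1.92 per kb.

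Histones had a coding peak in 64 of 83 genes (77.1%) at 6.21 per kb, and peaks covered a median of 79.4% of the coding sequence in members with an annotated peak. H3-3B, a replacement histone, led with 14 annotated peaks but had 5 coding peaks, while H3C12, H2BC6 and H1-5 had 7 coding peaks each. The 14-3-3 proteins, adaptors that bind phosphorylated partners, had a coding peak in 6 of 7 genes at 6.16 per kb. YWHAE led by annotated peaks with 15, and YWHAG by coding peaks with 9, against 8 in YWHAE.

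RNA processing and nucleolar genes were between these and the average. hnRNP proteins had a coding peak in 21 of 31 genes (67.7%) at 2.85 per kb, SR proteins and the spliceosome core in 32 of 65 (49.2%) at 1.37 per kb, and nucleolar ribosome biogenesis factors in 17 of 32 (53.1%) at 1.80 per kb. TCOF1 had 24 coding peaks, NOLC1 15, RRS1 13, FBL, the methyltransferase of box C/D particles, 11, NCL and GNL3 10 each. GNL3 and DKC1 (5 coding peaks) had 0 annotated peaks. Proteasome subunits had one in 17 of 46 (37.0%) at 1.10 per kb.

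In energy metabolism, glycolysis enzymes had a coding peak in 7 of 17 genes at 2.00 per kb. ALDOA had 13 coding peaks, GPI 12, PKM 9, TPI1 7, ENO1 5, PGAM1 4 and LDHB 3. GAPDH and PGK1, both abundant in most cells, had 0 in these rows. Nuclear-encoded subunits of the respiratory chain and ATP synthase had one in 38 of 91 (41.8%) at 2.34 per kb, led by ATP5PB with 11 coding peaks. Early-response and JUN/MAF transcription factors had one in 5 of 19 genes at 2.56 per kb, with 18 coding peaks in MYC, 10 in JUN and 8 in IER5. Chromatin remodellers had one in 12 of 28 at 0.864 per kb, including 23 in TRIM28 and 17 in SMARCA4, the ATPase of the BAF complex.

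Values below that of all protein-coding genes were found for a pair of large families. Zinc finger ZNF genes had a coding peak in 9 of 505 (1.78%, interval 0.940 to 3.35) at 0.0434 per kb, and of their 42 coding peaks 13 were in ZNF703 and 14 in ZNF503. Solute carriers had one in 12 of 340 (3.53%, interval 2.03 to 6.07) at 0.0963 per kb, led by SLC3A2, the heavy chain of amino acid transporters, with 11. Both intervals lay below the share of all protein-coding genes. Other lists lay somewhat above the 0.199 per kb of all protein-coding genes. HOX, SOX and FOX factors (9 of 104) were at 0.276 per kb, DEAD/DEAH-box helicases (11 of 57) at 0.310 and lipid and cholesterol synthesis genes (4 of 26) at 0.270.

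**Figure D4:**
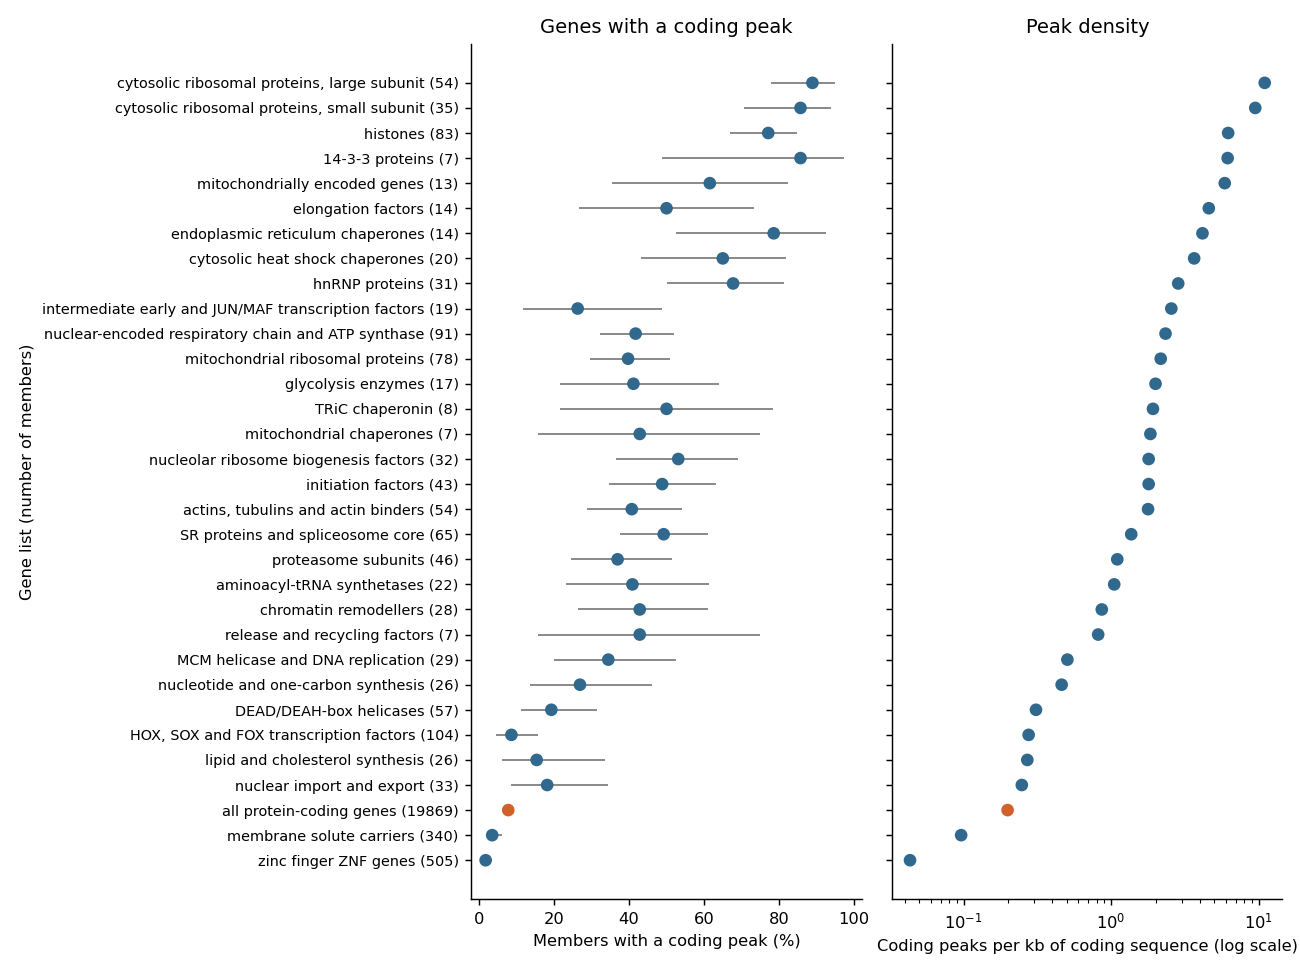
Left, percent of the members of each gene list with at least 1 peak in the canonical coding sequence, with 95% Wilson intervals; right, coding peaks per kb summed over all members, on a log scale; all protein-coding genes are in orange. The lists run from ribosomal proteins at 11 and 9.47 peaks per kb to ZNF genes at 0.0434, with all protein-coding genes at 0.199.

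The labels call the cell type neuronal. Of 16 neuronal markers, 3 had peaks, namely NEFM (16 annotated peaks), TUBB3 (8) and NEFL (7), and MAP2, RBFOX3, SYP, SNAP25 and DCX were among those with 0. Of 15 markers of kidney and embryonic kidney, 5 epithelial, 4 blood and 3 liver markers, 0 had a peak. Of 6 mesenchymal markers, VIM had 18 peaks and the others 0. Of the neuronal list, the 3 genes with peaks encode intermediate filament and tubulin proteins, and the other 13 had 0 peaks.

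The mitochondrial genome carried 96 peaks, all on the plus strand. MT-ND5 had 20, MT-CYB 15 and MT-ND4 12, all subunits of the respiratory chain, and the 16S ribosomal RNA gene MT-RNR2 had 14 and the 12S gene MT-RNR1 7. MT-CO3 and MT-ND1 had 7 each, MT-ATP6 3, MT-ATP8 2 and MT-CO2 1, while MT-CO1, MT-ND2, MT-ND3 and MT-ND4L had 0. The 5 peaks within MT-ND6, the only coding gene of the minus strand, were all opposite to it. Since the hg19 mitochondrial sequence can be numbered differently from the reference used here by a base or more, no frame was read in these genes.

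Mitochondrial sequence also appeared at nuclear positions. Of 8961 nuclear peaks of at least 20 bases, 117 (1.31%) shared a stretch of 20 bases with the mitochondrial genome. Of these, 44 lay in the MTRNR2L genes, nuclear copies of the 16S ribosomal RNA region, and 32 in a block of 36 intergenic plus-strand peaks on chromosome 1 (567112 to 570244). The block made up 36 of the 193 intergenic peaks. MTRNR2L2 had 21 annotated peaks, MTRNR2L1 and MTRNR2L8 15 each and MTRNR2L6 9. Of the 20 peaks of MTRNR2L2 that were at least 20 bases long, 19 shared such a stretch, so its place among the 25 genes with most peaks goes with mitochondrial sequence.

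Peaks per gene differed between chromosomes. Chromosome 19 had 1323 peaks, 89.9 per 100 protein-coding genes, chromosome 16 had 80.5 per 100 and chromosome 6, which holds the main histone clusters, 76.8. Chromosome 18 had 26.7 and chromosome 13 had 28. GC content of coding sequence moved with the presence of peaks. With all protein-coding genes put in 4 groups of nearly equal size in order of GC content, 4.95% of genes (interval 4.38 to 5.59) had a coding peak in the group of lowest GC content, and 7.93%, 9.30% and 8.90% in the next groups. Within genes, coding peaks had a mean GC content of 58.8% over 31 bases around the midpoint, against 56.1% in their own coding sequences, and 59.8% of peaks were above their own gene. Its part in the order of genes and chromosomes was not tested.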

How the data were processed

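Reads were trimmed by the authors with cutadapt, those under 21 bases were dropped, and the rest were aligned with BWA 0.5.5 to hg19 with junction sequences. Duplicates were removed and peaks called where Bambino coverage reached a cut-off. For CLIP-seq, the supplement also describes removal of peaks shared with the control and review of peaks by hand. It states that ribosome profiling used the same peak detection, but not whether these steps were applied here. HOMER (version not given in the sources used here) annotated the peaks. The deposited values are positions, strand, class and start-site distance, with no counts, so the read depth behind each peak is unknown. The paper's supplement gives the total reads of this library, but not by peak. It also shows that only a small part of the mapped reads remained once duplicates were removed. How far this removal shaped the number and length of peaks per gene was not tested. The number of peaks stood in for precision.

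On the plus strand the listed start lay 1 base nearer the start codon, and 1 base further in the codon, than on the minus strand, so starts were moved down by 1 base here. Genes were those of the annotated transcript, through the RefSeq table (21 transcripts with 76 peaks unmatched). Canonical transcripts were those of GENCODE 44 on GRCh37. For frame, the first 15 and last 45 coding bases were left out. Placement of peaks was tested on simulated data. Python 3.11.15, numpy 2.4.6, pandas 2.3.3 and scipy 1.17.1 were used. Named genes were the 25 with most peaks, the 10 densest with at least 5 coding peaks, the top 4 per list, the top 3 per class and DDX3X; further genes named in lists were chosen after their values were seen. Lists and members were chosen with earlier results of these data known. Of the other 2 lists only the number of rows was used. No fit or test was made. Some genes that meet the rule are not reported here.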

Additional observations from a re-analysis of the deposited data

How the results depend on the processing

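Of 42 alternative values for 8 results, 23 stayed within the counting interval of the reported value, or within 1.5 times it for the number of genes, and 19 moved. Restricting the list to peaks on the strand of their gene gave a coding share of 60.3%, a 5′-UTR share of 5.60%, 29.6% of peaks in the top 10% of genes, 5.14% in ribosomal protein genes and a median length of 32 bases. Regions of the canonical transcript gave 60.1% coding, 8.44% 5′-UTR and 1.55% 3′-UTR. Bases covered in place of peaks gave 56.6%, 5.70% and 0.765%, and 30.4% in the top 10% of genes. The median length was 34 bases without peaks under 10 bases, 35 with peaks under 10 bases apart joined, and 29 with starts as listed. The main frame held 41.6% by the 3′ end and 35.5% with starts as listed. With peaks given to the exon under them, an alternative chosen after seeing the data like that of listed starts, 29.2% of peaks were in the top 10% of genes and 6.79% in ribosomal protein genes. The number of genes stayed between 1724 and 2119. The order of the coding, 5′-UTR and 3′-UTR classes was the same in every setting run.

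No paired analysis was possible because the list comes from 1 library and no groups were compared. Leaving out a replicate was not possible for the same reason. The list holds no counts, so the reads behind any peak are unknown and small differences between genes cannot be judged.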
